A study of Drosophila melanogaster with 30 samples.

Results

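*HR3-RNAi* larvae and controls were compared on low-cholesterol food, to ask how the transcriptome depends on the nuclear receptor HR3 under sterol shortage. The comparison holds 10 of the 30 libraries of the series, chosen by their labels, namely 5 libraries of *HR3-RNAi* larvae and 5 of controls. *HR3-RNAi* animals carried *Tub-GAL80TS*, *Tub-GAL4* and *UAS-Hr3-RNAi*, each in 1 copy. Controls carried the same *Tub-GAL80TS* and *Tub-GAL4* elements but no RNAi transgene. Each library was made from a pool of 5 whole larvae of the last instar. All were on synthetic food with 1.2 µg/mL cholesterol and stayed on it for the last 10 h. In this system *GAL80TS* blocks GAL4 in the cold and releases it on warming, so that the ubiquitous *Tubulin* promoter drives the hairpin only after the shift. Since controls express no hairpin of any kind, effects of RNAi as such, of the transgene insertion and of the strain of origin cannot be told apart from loss of HR3. Which of the study's *HR3-RNAi* lines was sequenced is not given in the sources used here. Further libraries served only for comparison, namely *HR3-RNAi* larvae and controls refed with 80 µg/mL cholesterol, and *TOR-RNAi* larvae on low cholesterol.

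HR3 is a nuclear receptor related to the mammalian ROR receptors. It is best known as an ecdysone-induced transcription factor that represses early ecdysone genes and turns on *ftz-f1* at the onset of metamorphosis. Insects cannot make sterols, so dietary cholesterol is the source of membrane sterol and the precursor of ecdysone. TOR, a nutrient-sensing kinase, links such supply to growth.

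Total counts were 20155933 to 27499731 per *HR3-RNAi* library and 25695017 to 33510753 per control library, a difference in means larger than the spread between samples (exact permutation test, two-sided, p = 0.0238). Levels are given as CPM, counts scaled by the total of the library to 1e6, and 3 counts corresponded to 0.0895 to 0.149 CPM. Intervals and such floors cover counting error only. Nothing in the labels says that the pools of a group came from separate cultures, so p-values measure the spread between these pools. In whole larvae, fewer cells of a type and less RNA per cell cannot be told apart. Markers of fat body, midgut, muscle, nervous system and hemocytes were present in all 10 libraries. *roX1* and *roX2*, RNAs of the male dosage-compensation complex, summed to between 74.7 and 148 CPM in *HR3-RNAi* larvae and between 64.3 and 198 CPM in controls (exact permutation test, p = 0.690), and 6 testis genes summed to 92.4 to 222 CPM and 39.0 to 287 CPM (exact permutation test, p = 0.913). Salivary glue transcripts, which are switched on late in the last larval instar, set single libraries apart. *Sgs3* was at 877 CPM in *HR3-RNAi* replicate 1 and at 12.2 CPM in replicate 5, against at most 0.729 CPM in the other 3 *HR3-RNAi* libraries and at most 0.0660 CPM in controls. Counts are therefore also given without these 2 libraries, an alternative chosen after seeing the data.

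Few reads were counted for the targeted transcript. *Hr3* (FBgn0000448, chromosome 2R, 10203995 to 10237348, in the Ensembl annotation of BDGP6.54) had 8, 8, 6, 5 and 4 counts in the 5 *HR3-RNAi* libraries and 13, 13, 11, 5 and 7 counts in controls. The levels overlapped, at 0.271 ± 0.104 CPM in *HR3-RNAi* larvae and 0.334 ± 0.133 CPM in controls (SD, n = 5 each), with p = 0.452 in an exact two-sided permutation test, for which 0.00794 is the smallest value the design allows. The gene did not pass edgeR's filter on low counts, and without that filter its log2 fold change was -0.29 (SE 0.41, adjusted p = 0.867). A lower *Hr3* level was not detectable at this depth. *Hr3* shares its position with other annotated genes on the same strand. How reads of shared stretches were counted is unknown, so some of these reads may be theirs, and some *Hr3* reads may be missing.

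Of 11551 genes tested, 238 differed between *HR3-RNAi* larvae and controls at a Benjamini-Hochberg adjusted p under 0.05 in edgeR's quasi-likelihood test, which is 2.06% of genes. Of these, 122 were higher in *HR3-RNAi* larvae (1.06%) and 116 were lower (1%). The median log2 fold change of all genes was 0.01, and the replicates of the genotypes did not overlap for 494 genes (4.28%). Most called differences were modest. Their median size was 0.80 on the log2 scale, and 94 of the 238 reached a size of 1. For 222 of the 238 no replicates of the genotypes overlapped. Without the 2 libraries with glue transcripts 143 genes were called, of which 121 were among the 238.

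**Figure D1:**
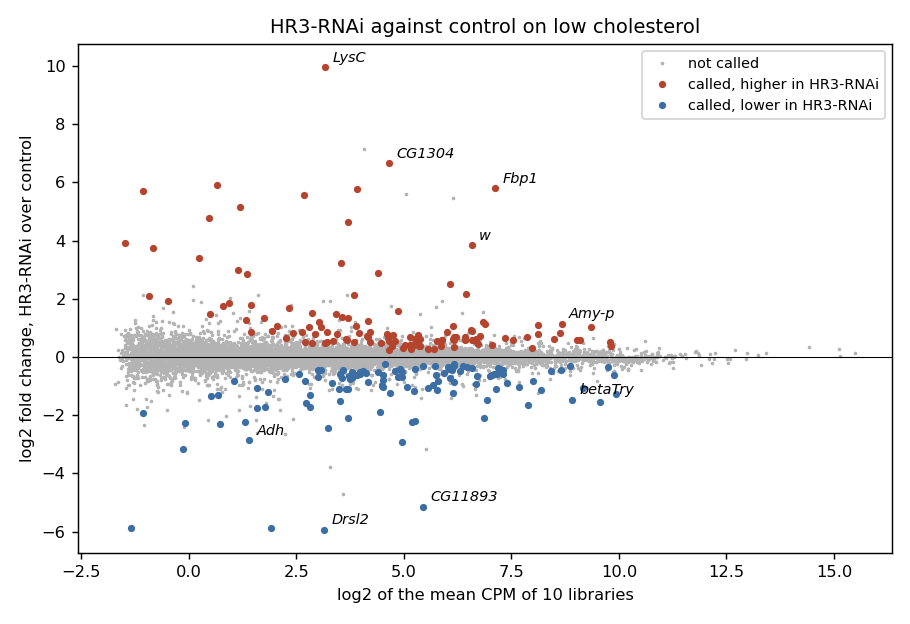
Each point is 1 of the 11551 genes tested on low cholesterol, with the log2 of its mean CPM over the 10 libraries on the x axis and its log2 fold change, *HR3-RNAi* over control, on the y axis. Red points are the 122 genes called higher and blue points the 116 called lower in *HR3-RNAi* larvae, and the grey cloud lies around 0.

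The extremes of the response are described by 24 genes, 12 for each direction, taken by size of fold change from the 206 called genes whose mean log2 CPM reached 1 and whose genotypes did not overlap. The highest fold belonged to *LysC* (FBgn0004426, chromosome 3L, 1210485 to 1210726), a member of the lysozyme cluster that is listed as a pseudogene in the annotation. *LysC* was at 17.7, 30.5, 11.7, 17.9 and 12.1 CPM in *HR3-RNAi* larvae, against 0, 0, 0, 0.0619 and 0 CPM in controls. The whole control group thus held 2 counts of it and the *HR3-RNAi* group 2101, a ratio of 1326 after scaling for depth (exact 95% interval 367 to 10954). Its neighbours in the cluster are close copies that may exchange reads, and they varied widely within both genotypes. *LysB* was at 38.9 to 227 CPM in *HR3-RNAi* larvae and at 1.42 to 73.7 CPM in controls, and *LysD* at 11.3 to 214 CPM and 0 to 84.0 CPM. Neither passed the test (adjusted p = 0.395 and 0.625 in edgeR's quasi-likelihood test).

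*CG1304* (FBgn0031141, chromosome X, 20964527 to 20965419), which encodes a predicted serine protease, was at 68.4, 48.3, 38.1, 31.1 and 64.4 CPM in *HR3-RNAi* larvae, against 0.195, 0.657, 0.297, 0.557 and 0.742 CPM in controls. All 5 *HR3-RNAi* libraries lay far above every control. The log2 fold change was 6.65 (SE 0.33, adjusted p = 6.58e-07 in edgeR's quasi-likelihood test). *Prx6c* (FBgn0033518, chromosome 2R, 10418718 to 10419761), a peroxiredoxin gene, was at 30.9, 49.1, 36.5, 37.6 and 31.0 CPM against 5.06, 4.63, 5.54, 4.12 and 6.38 CPM in controls. Again no replicates overlapped, and its log2 fold change was 2.87 (SE 0.14, adjusted p = 6.58e-07), while its relatives *Prx6a* and *Prx6b* had -0.27 and -0.42 and were not called.

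Of the 24 genes, 3 encode cytochrome P450 enzymes, a family that includes detoxification enzymes. *Cyp12d1-d* (FBgn0053503, chromosome 2R, 11123658 to 11125647), a mitochondrial cytochrome P450 known from insecticide exposure, was at 22.7, 31.1, 24.1, 23.8 and 23.6 CPM in *HR3-RNAi* larvae and at 1.36, 0.746, 0.924, 1.05 and 1.04 CPM in controls. The gap had a log2 fold change of 4.64 (SE 0.14) and the lowest adjusted p of all genes (1.78e-08 in edgeR's quasi-likelihood test). Its near-identical copy *Cyp12d1-p* was at 13.5 to 18.3 CPM and 6.12 to 13.5 CPM and was not called, and reads could be split between the copies. *Cyp6a17*, a P450 known for a role in temperature preference, moved the other way. It was at 5.80, 3.18, 5.40, 4.36 and 5.56 CPM in *HR3-RNAi* larvae, against 33.4, 20.4, 20.4, 14.6 and 16.7 CPM in controls (log2 fold change -2.08, SE 0.22, adjusted p = 0.000470).

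The *white* gene *w* (FBgn0003996, chromosome X, 2790599 to 2796466), an eye-pigment transporter gene that also serves as the visible marker of most fly transgenes, was at 214, 53.9, 239, 146 and 234 CPM in *HR3-RNAi* larvae. Controls had 16.4, 13.1, 13.9, 5.88 and 14.9 CPM, and *TOR-RNAi* larvae on the same food, which carry a different RNAi transgene, had 13.6 to 18.8 CPM. The log2 fold change of *HR3-RNAi* over control was 3.83 (SE 0.41, adjusted p = 0.000422 in edgeR's quasi-likelihood test). Of the other marker and insertion-site genes examined, *y*, *v* and *tio* were not called, with log2 fold changes of 1.00, 0.08 and -0.37. *Hsp70Bb* (FBgn0013278, chromosome 3R, 12505793 to 12508139), one of several near-identical genes for the inducible heat shock protein Hsp70, was at 33.8, 7.94, 29.1, 25.7 and 51.9 CPM in *HR3-RNAi* larvae, against 0.934, 0.0895, 0.924, 0.495 and 0.408 CPM in controls. Its log2 fold change was 5.75 (SE 0.56, adjusted p = 0.000219). The other copies *Hsp70Aa*, *Hsp70Ba*, *Hsp70Bbb* and *Hsp70Bc* stayed at or under 2.66 CPM in every library. They were not among the heat shock genes tested, and how reads were shared among the copies is unknown. Of the 22 heat shock genes tested, only *Hsp70Bb* and *Hsp70Ab* were called (9.09%, beside 2.06% of all genes). The second was at 0.933 to 6.52 CPM against 0.0742 to 0.429 CPM (log2 fold change 3.39, adjusted p = 0.0341). *HR3-RNAi* replicate 3 alone was at 6.52 CPM, the other 4 at 0.933 to 1.30 CPM, and the log2 fold change ranged from 2.29 (without that library) to 3.86 over 17 alternatives. The call of *Hsp70Ab* was lost in DESeq2's Wald test and without control replicate 1, 2, 4 or 5. The strongly expressed chaperone gene *Hsp83* was at 796 to 974 CPM in *HR3-RNAi* larvae and 893 to 979 CPM in controls.

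The remaining risen genes of the 12 were *CG13282* (log2 fold change 2.85), the P450 gene *Cyp6t3* (3.00), FBgn0028519, an identifier without a symbol in the annotation (5.15), and 3 loci outside the annotation. Of these loci, which have no name but a running number, the one with the largest rise was at 11.02 to 14.7 CPM in *HR3-RNAi* larvae and 0.0778 to 0.371 CPM in controls, and the most abundant at 103 to 123 CPM and 10.9 to 25.4 CPM. In all, 13 of the 66 unannotated loci tested were called, 10 higher and 3 lower. Of all genes 2.06% were called, 1.06% higher and 1% lower. Such loci and the 5 called identifiers without a symbol were placed on no chromosome.

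Among the fallen genes, *Drsl2* (FBgn0052279, chromosome 3L, 3314349 to 3314681), of the drosomycin family of antifungal peptides, was nearly lost from *HR3-RNAi* larvae. It was at 0.397, 0.179, 0.257, 0.327 and 0.243 CPM in *HR3-RNAi* larvae, against 17.5, 18.9, 14.8, 26.2 and 9.97 CPM in controls. The log2 fold change was -5.93 (SE 0.33, adjusted p = 1.37e-06 in edgeR's quasi-likelihood test).

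Genes of the ecdysteroid kinase-like family made up 3 of the 12 largest falls. Members of this family are predicted to phosphorylate small molecules, and the kinase it is named for, known from the silkworm, inactivates ecdysteroids for storage. *CG11893* (FBgn0039316, chromosome 3R, 25289889 to 25291366) was at 2.18, 2.51, 2.14, 2.04 and 2.88 CPM in *HR3-RNAi* larvae, against 113, 56.3, 102, 78.5 and 77.1 CPM in controls (log2 fold change -5.15, SE 0.19, adjusted p = 5.56e-08 in edgeR's quasi-likelihood test). *CG31380* (FBgn0051380) had 14 counts in all 5 *HR3-RNAi* libraries together and 1094 in controls, where it was at 5.74 to 8.19 CPM. Its log2 fold change was -5.88 (adjusted p = 6.58e-07). *CG9259* (FBgn0032913, chromosome 2L, 21089375 to 21090999) was at 48.6, 45.4, 47.9, 37.0 and 37.5 CPM, against 207, 161, 142, 230 and 200 CPM in controls. Here too no replicates overlapped, and the log2 fold change was -2.10 (SE 0.15, adjusted p = 1.27e-05). Over a list of the family that was drawn up after these values were seen, 6 of the 45 members tested were called (13.3%, beside 2.06% of all genes), all lower in *HR3-RNAi* larvae (1% of all genes were lower), the other 3 being *CG33301* (log2 fold change -1.0), *CG10513* (-0.66) and *CG31370* (-0.60). The call of *CG33301* was lost without the 2 libraries with glue transcripts (adjusted p = 0.0812). The other 39 members did not pass the test, and the median of the list was 0.03, beside 0.01 for all genes.

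Polyamine synthesis was represented by *Odc2* and *Odc1*, neighbouring genes for ornithine decarboxylase, the enzyme that commits ornithine to polyamines. *Odc2* (FBgn0013308, chromosome 2R, 8007246 to 8009062) was at 4.32, 14.5, 6.60, 8.98 and 10.9 CPM in *HR3-RNAi* larvae, against 40.3, 28.1, 33.5, 31.4 and 37.5 CPM in controls (log2 fold change -1.89, SE 0.25, adjusted p = 0.00164 in edgeR's quasi-likelihood test). *Odc1*, picked after its values were seen, was at 1.49, 5.11, 3.00, 2.47 and 4.34 CPM, against 9.03, 12.7, 14.4, 12.6 and 5.30 CPM in controls (log2 fold change -1.70, adjusted p = 0.0251). Its call was lost with the replicate block, without *HR3-RNAi* replicate 3 or 4, without control replicate 2 or 3, and without the 2 libraries with glue transcripts. The later enzymes of the pathway, *SamDC* and *SpdS*, were not called, with log2 fold changes of -0.09 and -0.18. *Adh*, alcohol dehydrogenase, was counted at 0.436 to 0.794 CPM in *HR3-RNAi* larvae and 1.76 to 6.42 CPM in controls (log2 fold change -2.86, adjusted p = 0.000860). Its overlapping neighbour *Adhr* was listed at 0 in every library. How reads of both genes were counted is therefore uncertain, and with it the true level of *Adh* and its fold change.

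The other falls of the 12 were *CG34215* (log2 fold change -2.92), the predicted protease gene *CG11313* (-2.44), the integrin gene *ItgaPS5* (-2.25), *CG13325* (-2.22) and *CG44040* (-2.19). *CG44040* was at 3.86 to 24.6 CPM in *HR3-RNAi* larvae and 33.3 to 86.9 CPM in controls (adjusted p = 0.0248 in edgeR's quasi-likelihood test). It lost its call without *HR3-RNAi* replicate 1 or 4, without control replicate 2 or 3, and without the 2 libraries with glue transcripts, where the adjusted p was 0.109.

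**Figure D2:**
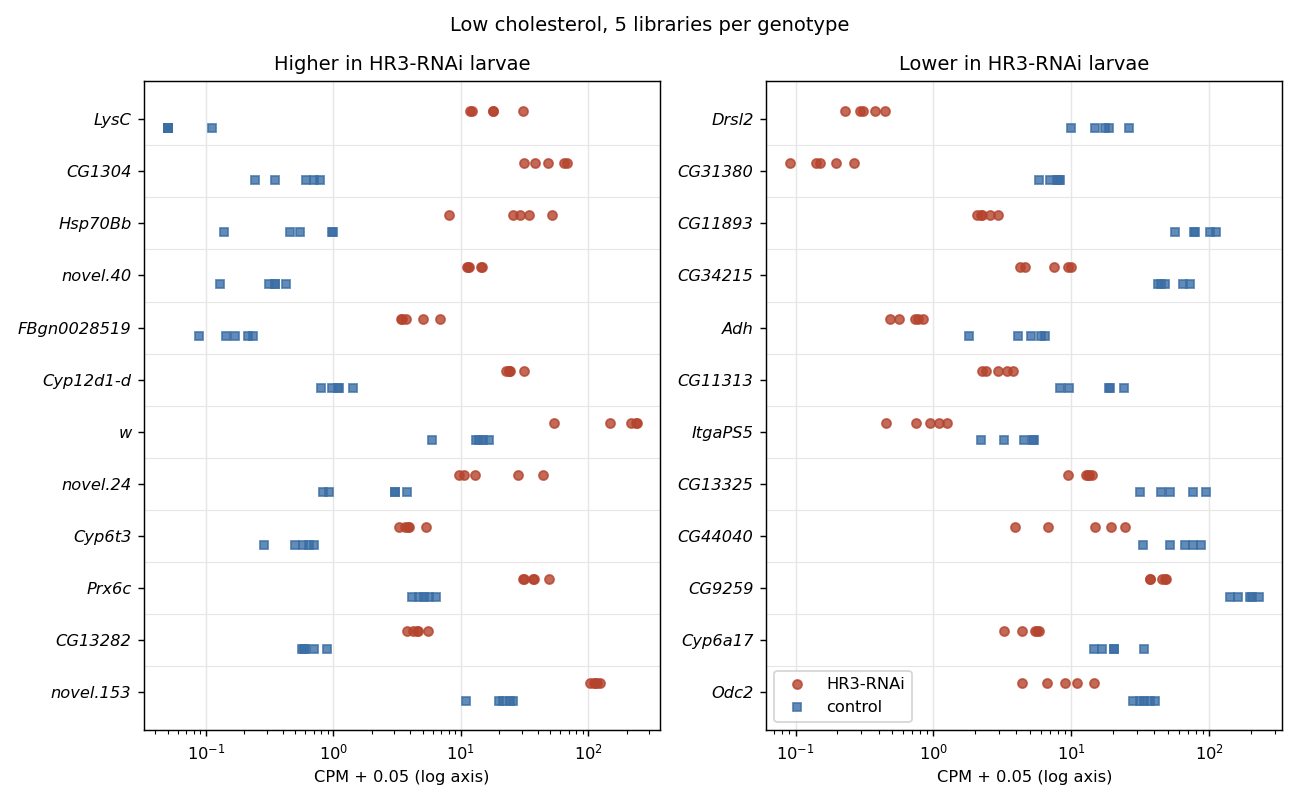
CPM plus 0.05, on a log axis, of the 24 genes in each low-cholesterol library, with *HR3-RNAi* libraries as red circles above control libraries as blue squares, 5 each. In the left panel all red circles lie above the blue squares in level, as for *CG1304* at 31.1 to 68.4 CPM against 0.195 to 0.742 CPM, and in the right panel all lie below them, as for *Drsl2* at 0.179 to 0.397 CPM against 9.97 to 26.2 CPM.

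Several of these genes also stood apart from controls in *TOR-RNAi* larvae on low cholesterol, a comparison in which 1.9% of genes were called and which shares the 5 control libraries. *CG11893* was at 2.04 to 2.88 CPM in *HR3-RNAi* larvae, at 1.77 to 2.05 CPM in *TOR-RNAi* larvae and at 56.3 to 113 CPM in controls. *Drsl2* was at 0.0496 to 0.446 CPM in *TOR-RNAi* larvae, *Prx6c* at 42.9 to 57.4 CPM and *CG1304* at 22.1 to 89.1 CPM. Others had levels closer to those of controls there, as *Cyp12d1-d* at 1.29 to 3.08 CPM, *CG34215* at 32.4 to 50.5 CPM and *Adh* at 3.56 to 7.39 CPM. *ItgaPS5* was at 0.406 to 1.21 CPM in *HR3-RNAi* larvae, 10.3 to 39.9 CPM in *TOR-RNAi* larvae and 2.15 to 5.29 CPM in controls.

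HR3 acts within the ecdysone cascade. Of 25 ecdysone-response genes tested, 1 was called higher, none lower and 24 were not called (4% called, beside 2.06% of all genes), with a median log2 fold change of 0.10 and a range of -0.38 to 0.90. DESeq2 called 2 of them, and 4 had an unadjusted p under 0.05 in edgeR. The early gene *br*, though listed, matched no symbol and was not examined. The highest value belonged to *Blimp-1*, an ecdysone-induced repressor gene, which was not called. The called gene was *Eip75B*, an early-response nuclear receptor that inhibits HR3, at 52.1 to 60.7 CPM in *HR3-RNAi* larvae and 45.8 to 54.0 CPM in controls, where replicate 1 overlapped the *HR3-RNAi* range. Its log2 fold change was 0.26 (adjusted p = 0.0477 in edgeR's quasi-likelihood test), and the call was lost under 15 of 18 alternatives, among them leaving out any 1 of the 10 libraries except control replicate 1. *ftz-f1*, the target HR3 is known to activate, was at 16.5 to 22.5 CPM in *HR3-RNAi* larvae and 16.8 to 20.2 CPM in controls (log2 fold change 0.10, adjusted p = 0.705). The ecdysone receptor gene *EcR* and the early gene *Eip74EF* had log2 fold changes of 0.19 and 0.41 and were not called.

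Of 13 genes for ecdysone synthesis and breakdown, 2 were called, both higher, and 11 were not, with a median of 0.10. The share called was 15.4%, beside 2.06% of all genes. The listed genes *nvd* and *phm* matched no symbol and were not examined. *Cyp6t3* (FBgn0033697, chromosome 2R, 12190682 to 12192436), a P450 gene needed for ecdysone synthesis in the prothoracic gland, was at 5.31, 3.86, 3.56, 3.20 and 3.81 CPM in *HR3-RNAi* larvae, against 0.234, 0.448, 0.528, 0.6498 and 0.593 CPM in controls. No replicates overlapped, and the log2 fold change was 3.00 (SE 0.28, adjusted p = 0.000132 in edgeR's quasi-likelihood test). *sro* (shroud), a dehydrogenase gene of the same pathway, was at 11.5, 6.46, 15.3, 10.4 and 9.82 CPM, against 6.03, 4.18, 1.82, 2.75 and 4.45 CPM in controls (log2 fold change 1.51, SE 0.31, adjusted p = 0.0266). The call of *sro* was lost under 9 of 18 alternatives, among them leaving out control replicate 2, 4 or 5 or *HR3-RNAi* replicate 1, 3, 4 or 5. Both genes overlap another gene on the opposite strand. The gland genes *spok* and *sad* had log2 fold changes of 0.03 and -0.12, and *shd*, which makes active ecdysone in peripheral tissue, had 0.19. *Jhe*, juvenile hormone esterase, picked after its values were seen, was at 4.02 to 5.64 CPM in *HR3-RNAi* larvae and 1.28 to 2.41 CPM in controls (log2 fold change 1.33, adjusted p = 0.00757).

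Of 26 genes for sterol uptake and transport, 1 was lower, none higher and 25 not called (3.85% called, beside 2.06% of all genes), with a median of 0.06. DESeq2 called 4 of them, and 5 had an unadjusted p under 0.05 in edgeR. After refeeding 4 were called higher and 5 lower, where 3.36% of all genes were called higher and 7.67% lower. *LpR1*, a lipoprotein receptor gene, was at 66.6, 63.5, 61.2, 60.2 and 63.9 CPM in *HR3-RNAi* larvae, against 84.4, 80.5, 76.7, 76.0 and 80.9 CPM in controls. The groups were narrow and separate, with a log2 fold change of -0.32 (SE 0.05, adjusted p = 0.00667 in edgeR's quasi-likelihood test). The call was lost under 1 of 18 alternatives, the replicate block, where the adjusted p in the same test was 0.0515. The intestinal sterol transporter gene *Npc1b* and the sterol-responsive nuclear receptor gene *Hr96* had 0.10 and -0.05.

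Among 40 genes of TOR and insulin signalling, 2 were higher, none lower and 38 not called (5% called, beside 2.06% of all genes), with a median of 0.07. The listed genes *S6k*, *InR*, *Lobe* and *PRAS40* matched no symbol and were not examined. *Iml1*, a subunit of the GATOR1 complex that restrains TOR, was at 51.6, 47.2, 46.7, 44.4 and 45.0 CPM in *HR3-RNAi* larvae, against 39.97, 35.8, 34.8, 33.4 and 38.0 CPM in controls (log2 fold change 0.39, SE 0.06, adjusted p = 0.00486 in edgeR's quasi-likelihood test). *Ilp6*, the fat-body insulin-like peptide gene, was at 9.93 to 10.8 CPM against 5.97 to 9.61 CPM (log2 fold change 0.49, adjusted p = 0.0448), a call lost under 14 of 18 alternatives, among them leaving out any 1 library other than control replicate 1. The level of *mTor* itself was 49.2 to 52.7 CPM in *HR3-RNAi* larvae and 48.4 to 53.9 CPM in controls. The TOR-regulated growth inhibitor gene *Thor* had a log2 fold change of 0.22 and was not called.

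On low cholesterol most ribosomal protein genes lay slightly below 0 without passing the test. Of 80 cytosolic ones none was called (edgeR's quasi-likelihood test; 1 at an unadjusted p under 0.05 and 0 in DESeq2), 7 had a positive log2 fold change and the median was -0.08. Of 70 mitochondrial ones, *mRpL37* alone was called, higher in *HR3-RNAi* larvae at 44.2 to 58.9 CPM against 24.9 to 37.2 CPM in controls (log2 fold change 0.74, adjusted p = 0.00549), while 68 of the 70 had a negative value and the median was -0.14. At an unadjusted p under 0.05 in edgeR there were 6 of the 70, and DESeq2 called 1. Over all 11551 genes tested, 6049 had a positive value and the median was 0.01. After refeeding, 37 mitochondrial ones were called lower and 1 higher, with a median of -0.26, where 7.67% of all genes were called lower. Of the cytosolic ones none was called after refeeding, and their median was -0.06.

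Calls among digestive enzymes went in opposite directions. Of 49 digestive enzyme genes tested 5 were higher, 5 lower and 39 not called (20.4% called, beside 2.06% of all genes), with a median of -0.04. As this list is long, the members named here were picked after their values were seen. Several trypsin genes that lie side by side on chromosome 2R, among them close copies that may exchange reads, fell. Other trypsin genes of the list did not, since *deltaTry*, *gammaTry*, *zetaTry*, *iotaTry*, *lambdaTry*, *etaTry* and *kappaTry* were not called. Their log2 fold changes were 0.04 to 0.41. The predicted serine protease gene *CG30025*, which is not in the list, was called higher. Its log2 fold change was 1.03, and the call was kept under all 18 alternatives. *betaTry* was at 291, 249, 317, 231 and 178 CPM in *HR3-RNAi* larvae, against 716, 603, 665, 898 and 673 CPM in controls (log2 fold change -1.47, SE 0.17, adjusted p = 0.000681 in edgeR's quasi-likelihood test). *thetaTry*, *epsilonTry* and *alphaTry* had log2 fold changes of -1.25, -1.06 and -0.57, the last with an adjusted p of 0.0458 that was lost under 12 of 18 alternatives, among them leaving out any 1 library other than *HR3-RNAi* replicate 1. *Jon99Fi*, a serine protease gene, had -1.04, which was lost only without the 2 libraries with glue transcripts (adjusted p = 0.0551). The 5 genes called higher were *LysC*, the serine protease gene *Ser6* and the genes *Amy-p*, *Mal-A5* and *Amyrel*, which belong to the amylases and maltases. *Ser6* was at 32.8 to 55.4 CPM in *HR3-RNAi* larvae and 22.3 to 31.1 CPM in controls (log2 fold change 0.68, adjusted p = 0.0373), a call lost under 11 of 18 alternatives, among them leaving out control replicate 1, 2, 3 or 5 or *HR3-RNAi* replicate 1, 2, 3 or 5. *Amyrel* had 0.57, lost under 9 of 18, among them leaving out control replicate 2 or 5 or *HR3-RNAi* replicate 1, 2, 3 or 4. *Amy-p*, the proximal of 2 near-identical amylase genes, was at 493, 644, 715, 464 and 479 CPM, against 342, 247, 236, 251 and 219 CPM in controls (log2 fold change 1.14, SE 0.16, adjusted p = 0.00249), and *Mal-A5*, a maltase gene, was at 75.4 to 115.2 CPM against 37.7 to 56.2 CPM (1.08, adjusted p = 0.00116). Another maltase gene, *Mal-A1*, had -0.35 and was not called. The midgut markers *Amy-p*, *Amy-d*, *Mal-A1*, *Jon65Aiii* and *Npc1b* together gave 4089 to 5408 CPM in *HR3-RNAi* larvae and 4273 to 5448 CPM in controls (exact permutation test, p = 0.976).

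Of 73 cytochrome P450 genes 5 were higher, 2 lower and 66 not called (9.59% called, beside 2.06% of all genes), with a median of 0.05. The *Cyp12d1* copies are not counted in that list. Besides *Cyp6t3* and *Cyp6a17*, and again picked after seeing the values, *Cyp6a13* was at 42.0, 47.6, 50.3, 39.0 and 39.0 CPM in *HR3-RNAi* larvae, against 15.3, 14.4, 13.3, 14.2 and 16.4 CPM in controls (log2 fold change 1.59, SE 0.10, adjusted p = 3.81e-06 in edgeR's quasi-likelihood test). *Cyp6a2* and *Cyp6w1* had 1.33 and 1.36. The calls of *Cyp4e3* (1.80) and *Cyp4d1* (-0.43) were lost under 11 and 10 of 18 alternatives. Both were lost without control replicate 2, 3, 4 or 5, without *HR3-RNAi* replicate 1, 2 or 5 and without the 2 libraries with glue transcripts, *Cyp4e3* also without *HR3-RNAi* replicate 3 and *Cyp4d1* without *HR3-RNAi* replicate 4. Of 35 glutathione S-transferase genes 2 were higher and 2 lower (11.4% called, beside 2.06% of all genes), with a median of -0.10. *GstE1*, which acts on oxidation products and xenobiotics, was at 33.1, 32.9, 35.9, 33.1 and 35.5 CPM, against 59.0, 80.2, 86.4, 85.4 and 68.6 CPM in controls (log2 fold change -1.14, adjusted p = 0.000399), while *GstE5* in the same cluster was at 30.2 to 39.1 CPM against 17.1 to 25.3 CPM (0.75, adjusted p = 0.00644). The calls of *GstD4* (-1.06) and *GstE3* (0.59) were lost under 10 and 8 of 18 alternatives, for *GstD4* among them leaving out control replicate 1, 4 or 5 or *HR3-RNAi* replicate 1, 2, 4 or 5, and for *GstE3* leaving out control replicate 2, 3 or 5 or *HR3-RNAi* replicate 2, 3, 4 or 5. Of 32 UDP-glycosyltransferase genes 1 was called, *Ugt301D1*, with a log2 fold change of 0.40, and the call was lost with the replicate block, in 1 fit of all 30 libraries and without the 2 libraries with glue transcripts.

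Of 14 antimicrobial peptide genes tested, *Drsl2* and *CecC* were lower, none was higher and 12 were not called, with a median of -1.01. The share called was 14.3%, beside 2.06% of all genes. *CecC*, a cecropin gene, was at 0.0858 to 0.325 CPM in *HR3-RNAi* larvae and 0.445 to 1.01 CPM in controls (log2 fold change -1.91, adjusted p = 0.0246 in edgeR's quasi-likelihood test). The call was lost under 8 of 17 alternatives. These were leaving out control replicate 3, *HR3-RNAi* replicate 1, 2, 3 or 4, or the 2 libraries with glue transcripts, the replicate block, and 1 fit of all 30 libraries. Markers of hemocytes, the blood cells, summed to 1225, 1239, 1327, 1139 and 1135 CPM in *HR3-RNAi* larvae, against 1041, 978, 1072, 1226 and 911 CPM in controls (exact permutation, two-sided, p = 0.0397, and 0.357 after Benjamini-Hochberg adjustment over the 9 marker sums compared). Of these markers *NimC1*, a phagocytosis receptor gene, was called, at 29.3, 29.7, 34.3, 30.3 and 29.7 CPM against 17.8, 21.4, 19.4, 16.5 and 14.1 CPM (log2 fold change 0.80, adjusted p = 0.00320). In the marker sum control replicate 4, at 1226 CPM, lay within the *HR3-RNAi* range, whereas for *NimC1* no replicates overlapped. The part of this marker sum in the values of the immune genes was not tested.

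Of 6 fat body storage protein genes 1 was called (16.7%, beside 2.06% of all genes). *Fbp1*, a storage protein receptor gene that ecdysone induces, was at 853, 4.26, 352, 20.7 and 134 CPM in *HR3-RNAi* larvae, against 6.34, 1.67, 1.12, 12.04 and 3.41 CPM in controls. The groups overlapped through *HR3-RNAi* replicate 2, and the log2 fold change was 5.80 (SE 1.29, adjusted p = 0.0448 in edgeR's quasi-likelihood test). The call was lost under 11 of 18 alternatives, among them leaving out *HR3-RNAi* replicate 1, 3 or 5 or control replicate 1, 2, 3 or 5, and the log2 fold change ranged from 4.75 to 6.53. *HR3-RNAi* replicate 1, the highest for *Fbp1*, was also the highest for *Sgs3*, and the part of the glue transcripts' pattern in this result was not tested. The other 5 storage protein genes were not called, and *Lsp2* was at 1102 to 2396 CPM in *HR3-RNAi* larvae and 1405 to 2167 CPM in controls. None of 6 glue genes tested was called (3 at an unadjusted p under 0.05 and 0 in DESeq2).

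Other lists held few or no calls, where 2.06% of all genes were called. None of 19 glycolysis genes, 33 testis genes and 8 dosage-compensation genes was called, also none at an unadjusted p under 0.05 and none in DESeq2. None of 10 RNAi machinery genes was called (2 at an unadjusted p under 0.05 and 0 in DESeq2). Of 25 genes for lipid synthesis and storage, malic enzyme *Men* was lower, at 696 to 773 CPM in *HR3-RNAi* larvae and 882 to 1130.5 CPM in controls (log2 fold change -0.36, adjusted p = 0.0282 in edgeR's quasi-likelihood test). Its call was lost with the replicate block, without control replicate 2, without *HR3-RNAi* replicate 1, 2, 4 or 5 and without the 2 libraries with glue transcripts. Of 71 cuticle protein genes 1 was higher, *Cpr49Ac*, at 76.3 to 89.1 CPM against 33.1 to 69.1 CPM (0.86, adjusted p = 0.0152), and the median of the list was -0.19. The call of *Cpr49Ac* was lost in 1 fit of all 30 libraries and without the 2 libraries with glue transcripts, with adjusted p values of up to 0.441.

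**Figure D3:**
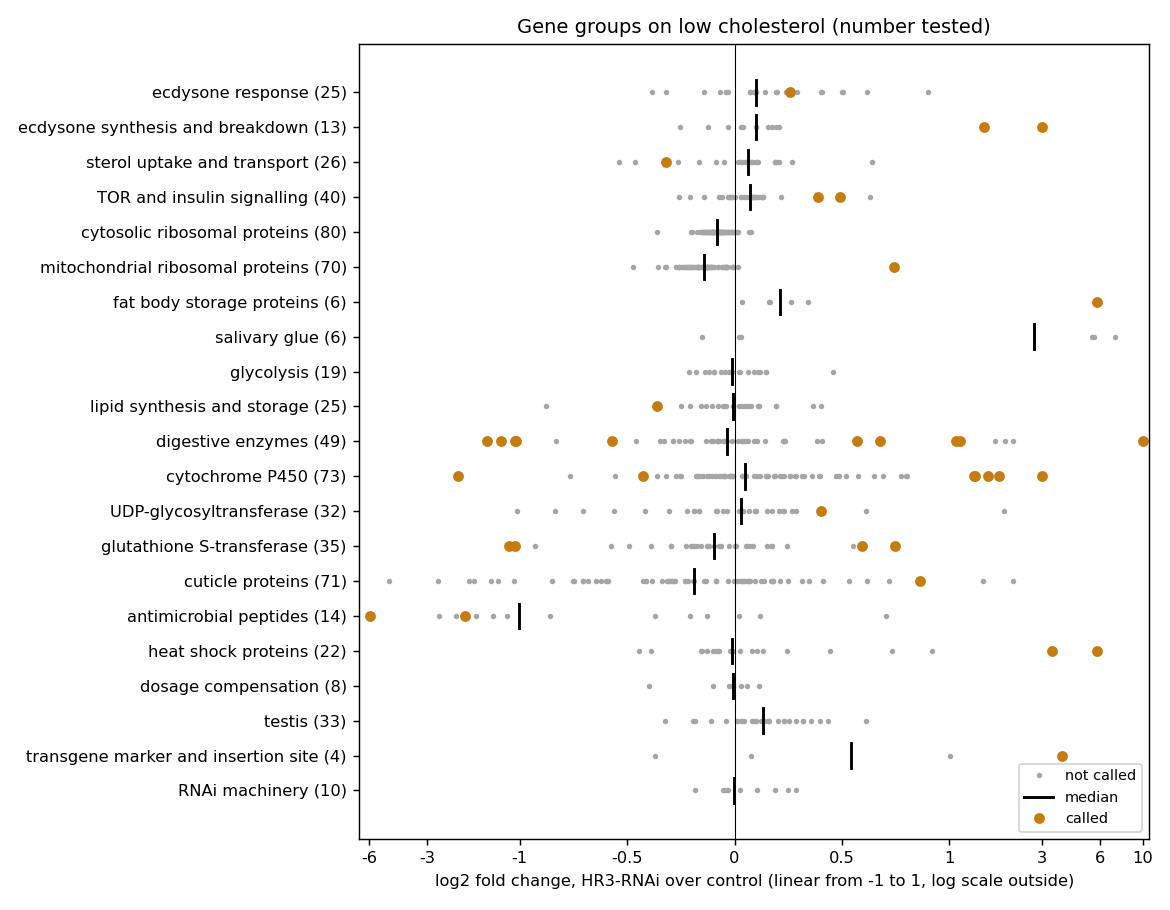
log2 fold change, *HR3-RNAi* over control on low cholesterol, of every tested member of 21 gene groups, with the number tested in brackets; orange points were called, grey points were not, and black bars mark medians. The axis is linear from -1 to 1 and logarithmic outside. Digestive enzymes have 5 orange points on each side of 0, and the ribosomal groups lie in a narrow band just left of it.

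Some further genes were picked after their values were seen. The lysosomal α-mannosidases *LManII*, *LManI* and *LManVI*, which trim glycans, were higher in *HR3-RNAi* larvae, *LManII* at 161, 192, 159, 157 and 139 CPM against 82.0, 70.7, 78.1, 72.0 and 70.0 CPM in controls (log2 fold change 1.13, SE 0.08, adjusted p = 9.77e-06 in edgeR's quasi-likelihood test). The remaining 3 members *LManIII*, *LManIV* and *LManV* were not called, so that 50% of the 6 tested were called, beside 2.06% of all genes. The call of *LManVI* was lost in 1 fit of all 30 libraries. After refeeding 2 of the 6 were called higher, where 3.36% of all genes were. The median of the 6 was 0.56 on low cholesterol and 0.14 after refeeding. The brush-border enzyme gene *Alp7*, an alkaline phosphatase, was at 595, 708, 560, 504 and 502 CPM, against 1439, 1264, 1314, 1505 and 1442 CPM in controls (log2 fold change -1.26, adjusted p = 3.77e-05). *CG6295*, a predicted lipase gene, was at 476, 394, 501, 359 and 170 CPM against 1516, 1154, 766, 1129 and 1028 CPM in controls (-1.54, adjusted p = 0.0114). The clock gene *tim* was at 11.9, 9.73, 15.4, 11.4 and 7.83 CPM, against 5.10, 4.33, 5.02, 5.51 and 5.08 CPM (log2 fold change 1.19, adjusted p = 0.00425), while *per*, *Clk*, *cyc*, *cry*, *vri*, *Pdp1* and *cwo* were not called. Of 7 genes for large sarcomere proteins, which span the contractile unit of muscle, *bt*, *Msp300* and *Strn-Mlck* were lower (42.9% called, beside 2.06% of all genes). Their log2 fold changes were -0.61, -0.47 and -0.47. *Mhc*, muscle myosin, was at 5272 to 6419 CPM in *HR3-RNAi* larvae and 5197 to 7377 CPM in controls. The call of *bt* was lost in 1 fit of all 30 libraries and without the 2 libraries with glue transcripts. That of *Strn-Mlck* was lost under 4 of 18 alternatives. The median of the 7 was -0.39 on low cholesterol and 0.11 after refeeding, where none of them was called.

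To see whether the differences recurred, the same genotypes were compared after refeeding, in 10 further libraries that share none with the low-cholesterol comparison. Of 11450 genes tested there 1263 were called (11%), 385 higher (3.36%) and 878 lower (7.67%) in *HR3-RNAi* larvae. Of the 238 genes called on low cholesterol 236 were tested after refeeding, and 222 of these had the same direction (94.1%). The call recurred for 160, all in the same direction, which is 67.2% of the low-cholesterol list and 12.7% of the refed list. The order of depths was the opposite there, with 26309990 to 33331771 counts per refed *HR3-RNAi* library and 19744564 to 29460479 per refed control library.

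After refeeding *CG1304* was at 44.7 to 68.6 CPM in *HR3-RNAi* larvae and 0.374 to 0.713 CPM in controls, *Drsl2* at 0.0721 to 0.231 CPM and 7.99 to 15.5 CPM, and *Cyp12d1-d* at 23.6 to 34.6 CPM and 0.912 to 1.37 CPM. *CG11893* was less even, since the refed controls themselves spread from 1.86 to 75.6 CPM. Of the 24 genes, 1 unannotated locus, *CG13325* and *CG44040* were not called after refeeding, with log2 fold changes of 1.44, -0.98 and -1.0. Several genes called on low cholesterol had other values after refeeding and were not called there. *Men* and *Msp300* had -0.04 and -0.07. *Ugt301D1*, *bt* and *CecC* had the opposite sign to that on low cholesterol, at -0.15, 0.18 and 0.76.

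**Figure D4:**
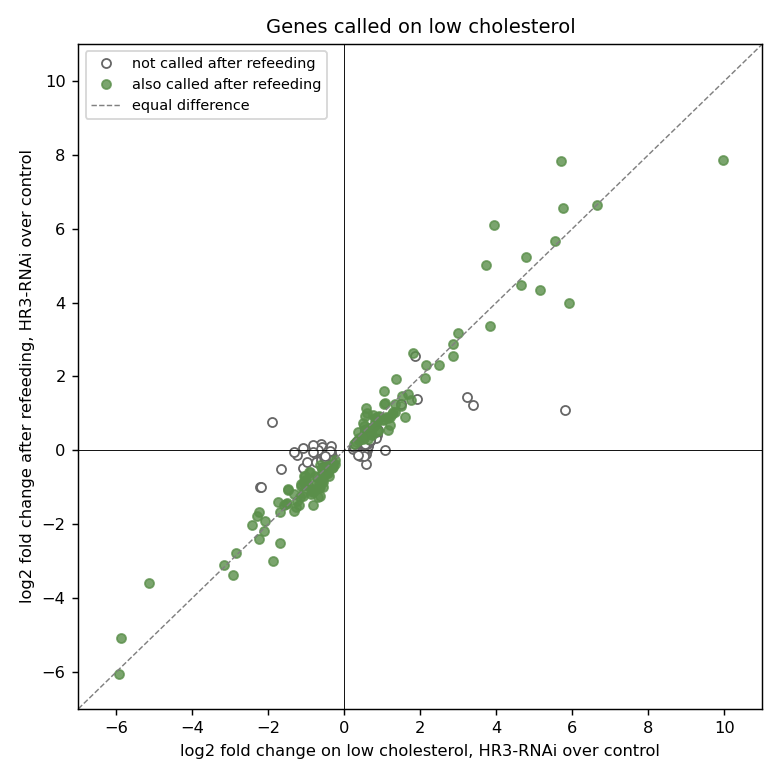
log2 fold change, *HR3-RNAi* over control, on low cholesterol (x axis) and after refeeding (y axis) of the 236 genes called on low cholesterol and tested in both diets. Filled green points were also called after refeeding, open points were not, and the dashed line marks an equal difference. Of the points, 222 lie in the lower left or upper right corner of the plot, where both diets had the same sign.

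Whether the genotype difference depended on diet was tested as an interaction over the 20 libraries. Of 11947 genes 1 was called by edgeR's quasi-likelihood test (0.00837%), 1204 had an unadjusted p under 0.05 (10.1%) and DESeq2 called 126. Of the 238 genes, 0 were called in that test, 63 had an unadjusted p under 0.05 and 18 were called in DESeq2. The single called gene was *CadN*, neural cadherin, which was itself not called on low cholesterol, at 21.1 to 28.5 CPM in *HR3-RNAi* larvae and 18.4 to 23.5 CPM in controls. After refeeding it was at 25.6 to 31.5 CPM and 12.4 to 15.1 CPM, giving a difference between diets of -0.73 on the log2 scale, low cholesterol minus refed (SE 0.10, adjusted p = 0.00685). The call was lost with all 30 libraries in 1 fit and with the *roX* level as a covariate.

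The called genes were spread unevenly over the chromosomes. On 2L 59 of 2055 tested genes were called (2.87%) and on 2R 69 of 2248 (3.07%), against 25 of 2210 on 3L (1.13%), 50 of 2807 on 3R (1.78%) and 16 of 1834 on X (0.872%). These shares are described without a test, since neighbouring genes are not independent. After refeeding, the shares were 11.2% on 2L, 12.2% on 2R, 11.3% on 3L, 11.6% on 3R and 8.60% on X. In *TOR-RNAi* larvae on low cholesterol, set against the same controls, they were 1.97%, 2.15%, 1.70%, 2.22% and 0.771%. Of the 220 called genes with a position, 50 had another called gene within 10 kb (22.7%), as had 858 of the 11052 genes not called (7.76%). Gene families lie in clusters, as the trypsin genes and *Odc1* with *Odc2* do, and overlapping genes can share reads.

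**Figure D5:**
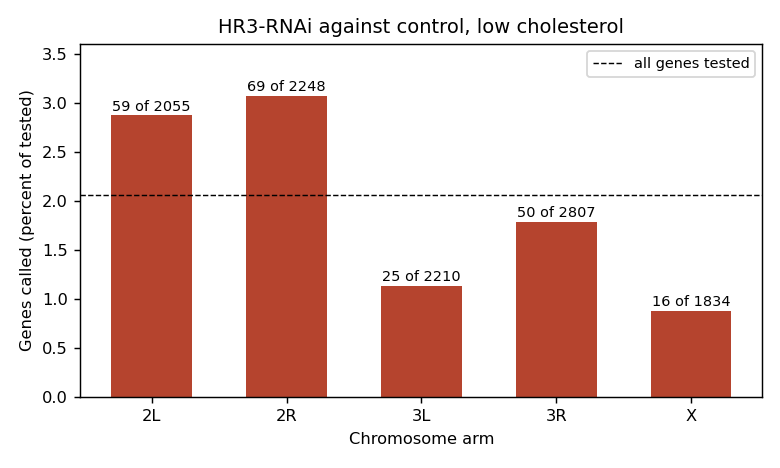
Share of tested genes that were called between *HR3-RNAi* larvae and controls on low cholesterol, in percent, by chromosome arm, with counts above the bars. The dashed line is the share over all genes, 2.06%; bars for 2L and 2R stand above it and those for 3L, 3R and X below it.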

How the data were processed

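Whole-larva RNA-seq libraries, 5 per group and each a pool of 5 larvae, were analysed from gene-level counts that the authors deposited as raw counts, not normalized. The tools named in the submitters' processing notes are CASAVA, HISAT2, StringTie, featureCounts, DESeq2 and edgeR, and the genome build and strand setting are not given in the sources used here. Reads of overlapping or near-identical genes may therefore be assigned to either. The table held 17713 features, of which 17252 IDs matched a symbol in the Ensembl annotation of BDGP6.54. Listed genes that matched no symbol were not examined, among them *FASN1*, *GlyP* and *Drs* besides those named above.

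Libraries were grouped by their labels. *HR3-RNAi* and control libraries on low cholesterol were fitted with edgeR 4.0.16 in R 4.3.3 (filterByExpr, TMM scaling, quasi-likelihood F test, Benjamini-Hochberg adjustment over all genes tested, called at an adjusted p under 0.05), and likewise after refeeding and for the interaction of genotype and diet over 20 libraries. The scripts were tested on simulated data. DESeq2 1.42.0, other filters and scalings, a replicate block, *roX* level as a covariate and leaving out single libraries were tried as alternatives. CPM values use total counts. Named genes were the 12 largest rises and 12 largest falls among called genes whose mean log2 CPM reached 1 and whose genotypes did not overlap; other genes come from lists or were picked after their values were seen. The members and lists were chosen with earlier results of these data known.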

Additional observations from a re-analysis of the deposited data

Results flagged for a closer look

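Values far from the others of their group (Dixon's test at the 95% level) were sought in 272 groups of 5 libraries, of which chance flags about 1 in 20, and 25 were found. *HR3-RNAi* replicate 1 was highest in summed salivary gland markers (2155 CPM), *Sgs3* (877 CPM) and *cry* (2.98 CPM). *HR3-RNAi* replicate 3 was highest in the heat shock genes *Hsp68* (247 CPM), *Hsp70Ab* (6.52 CPM), *Hsp70Bbb* (2.66 CPM), *Hsp70Bc* (2.62 CPM) and *Hsp70Aa* (1.84 CPM), and in *NimC1* (34.3 CPM). *HR3-RNAi* replicate 2 was highest in *Cyp12d1-d* (31.1 CPM) and *Alp8* (159.8 CPM) and lowest in *Ugt301D1* (36.9 CPM).

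Among controls, replicate 1 was highest in *Amy-p* (342 CPM), *Alp8* (265 CPM), *Eip75B* (54.0 CPM) and *vri* (15.1 CPM). Control replicate 3 was highest in *bt* (1439 CPM) and *Cyp4d1* (213 CPM) and lowest in *Amyrel* (329.9 CPM). Control replicate 4 was highest in *LysD* (84.0 CPM), *CG15534* (56.8 CPM), *LysE* (12.9 CPM), *Cyp6a2* (10.7 CPM) and *LysC* (0.0619 CPM), and control replicate 5 in *lectin-24A* (0.148 CPM).

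For *CadN* the genotype difference itself differed between diets, by -0.73 on the log2 scale, low cholesterol minus refed (adjusted p = 0.00685 in edgeR's interaction test).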

How the results depend on the processing

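The 238 calls on low cholesterol became 510 with DESeq2's Wald test (237 of them shared), 143 without the 2 *HR3-RNAi* libraries with over 10 CPM of *Sgs3*, 102 at an adjusted p under 0.01, 1475 at an unadjusted p under 0.05 and 94 with a size of at least 1 on the log2 scale. Leaving out single libraries gave 162 to 277. The 1263 calls after refeeding became 484 in 1 fit of all 30 libraries and 784 with *roX* level as a covariate, and ranged from 765 (without control replicate 5) to 1662 (without control replicate 4). The interaction count of 1 became 126 with DESeq2, 0 in 1 fit of all 30 libraries, 0 with *roX* level, and 1 to 18 without single libraries, with 18 without low-cholesterol *HR3-RNAi* replicate 1, 4 without refed control replicate 4, 3 without low-cholesterol *HR3-RNAi* replicate 2, and 2 without low-cholesterol control replicate 3 or refed *HR3-RNAi* replicate 1. The cause was not tested.

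With the replicate number as a block (replicate block) 161 genes were called on low cholesterol, 142 of them shared, 900 after refeeding and 2 for the interaction. Same-numbered libraries correlated at -0.43 to 0.10 in their deviations from group means, with a mean of -0.13 beside 0.04 for other pairs. These values gave no sign that the numbers pair the samples, though a weak pairing could go unseen. Of 432 alternative values for the 24 named genes 427 kept their call and direction, 5 (all *CG44040*) lost the call and 0 reversed. Of 53 other called genes checked, 27 kept the call throughout and 26 lost it under at least 1 alternative. The *Hr3* log2 fold change stayed between -0.46 and -0.14, and with 4 to 13 counts per library depth limits that comparison.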
